A study of Mus musculus with 12 samples.

Results

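The genes described here move fatty acids from circulating lipoproteins into fat cells and prepare them for storage. They are the lipoprotein lipase gene Lpl and its anchor gene Gpihbp1, the transporter genes Cd36, Slc27a1 and Slc27a4, the binding protein genes Fabp4 and Fabp5, the acyl-CoA synthetase gene Acsl1, and the lipoprotein receptor genes Vldlr and Lrp1. The members were taken by symbol, and all 10 were found among the 25229 named genes of the table. All 10 also passed the filter on low values. RNA came from eWAT, the epididymal white fat pad of the abdomen, of C57BL/6 mice and was sequenced in 12 libraries. HFD_TKO mice carried the genotype labelled TET KO and ate a high-fat diet. HFD_WT mice were wild type on the same high-fat diet. ND_TKO mice carried TET KO on a normal diet, and ND_WT mice were wild type on a normal diet, with 3 biological replicates in each of the 4 groups. The series title places the loss of the TET proteins, which oxidise 5-methylcytosine in DNA, in adipocytes. Which TET genes and exons were removed, the Cre line, the ages and the length of feeding are not given in the sources used here. The comparison asks how loss of TET proteins in fat cells and a fat-rich diet bear on transcript levels in eWAT.

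Triglyceride in chylomicrons and very-low-density lipoprotein is too large to enter a cell and is cut by lipoprotein lipase on the wall of capillaries. GPIHBP1, a protein of capillary endothelial cells, carries the enzyme across the cell and holds it at the lumen. The released fatty acids enter adipocytes with the help of CD36 and fatty acid transport proteins, are bound in the cytosol by FABP proteins, and are coupled to coenzyme A by acyl-CoA synthetases before they can be built into triglyceride. In white fat, several of these genes are classic targets of the nuclear receptor PPARγ, and some of them are also used by macrophages and endothelium.

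The libraries held 20973140 to 25606629 reads. On the first principal component (64.3% of the variance) the HFD_TKO libraries lay between -8.09 and 0.462, the HFD_WT libraries between 72.6 and 72.9, and all ND libraries between -44.0 and -25.7. On the second component (15.8%), HFD_TKO replicate 1 lay at 44.2 against 18.5 and 26.2 for the other HFD_TKO libraries. ND_WT replicate 3 lay at -6.21 against -32.0 and -32.6 for the other ND_WT libraries. By the test used, Tet1 was higher in TKO than in WT on HFD (log2 change 0.76, adjusted p = 0.010) and on ND (0.97, adjusted p = 0.019). Its level was low, with means of 2.26 CPM in HFD_TKO, 0.899 CPM in HFD_WT, 2.66 CPM in ND_TKO and 0.905 CPM in ND_WT. Tet2 and Tet3 did not pass on HFD (-0.47 and -0.18, adjusted p = 0.066 and 0.13) or on ND (-0.06 and 0.22, adjusted p = 0.91 and 0.17). Reads over a whole gene also come from exons left in place and from other cells, so the Tet genes are no check of the genotype labels, and TKO stands for the libraries labelled so. Levels are in CPM, reads scaled to the library total. A change is a log2 difference on the log2(CPM + 1) scale with its standard error (SE), tested with limma and adjusted by the Benjamini-Hochberg method over 15597 genes, and called at an adjusted p under 0.05.

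On HFD, Lpl, Gpihbp1, Slc27a4 and Fabp4 were higher in TKO than in WT, Lrp1 was lower, and the other 5 members did not pass the test. Because the tissue was sequenced whole, fewer cells of a type and less RNA per cell cannot be told apart for any of these genes. The 5 called members stand beside 46.7% of all tested genes called, with 15.2% higher and 31.6% lower (21.3% and 25.6% with CPM scaled by TMM, the trimmed mean of M-values). On ND, Gpihbp1, Fabp5 and Acsl1 were higher in TKO and no member was lower, against 5.70% of all tested genes called, 2.16% higher and 3.54% lower (3.37% and 2.54% with TMM scaling). The count on ND was 1 without ND_TKO replicate 1, ND_TKO replicate 3 or ND_WT replicate 1, and 5 with edgeR and with DESeq2, which added Lpl and Cd36. The median change over the 10 members was 0.15 on HFD and 0.30 on ND, beside -0.10 and -0.06 for all tested genes. HFD in WT, where 58.1% of all tested genes were called, went both ways, with Fabp5, Vldlr and Lrp1 higher (37.8% of all tested genes were higher, 29.9% with TMM scaling) and Lpl, Gpihbp1, Slc27a1 and Fabp4 lower (20.3% lower, 27.2% with TMM scaling). HFD in TKO, with 22.1% of all tested genes called, left Slc27a4, Fabp5 and Vldlr higher (16.2% of all tested genes, 8.96% with TMM scaling) and Gpihbp1, Slc27a1 and Acsl1 lower (5.90%, 9.45% with TMM scaling). The median change of all tested genes on HFD in WT was 0.13 with CPM and 0.01 with TMM scaling, and that of the 10 members was 0.01 and -0.14. On HFD in TKO the members' median was -0.18, beside 0.07 for all tested genes. Each genotype comparison shares libraries with a diet comparison, so the 4 are not independent.

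**Figure D1:**
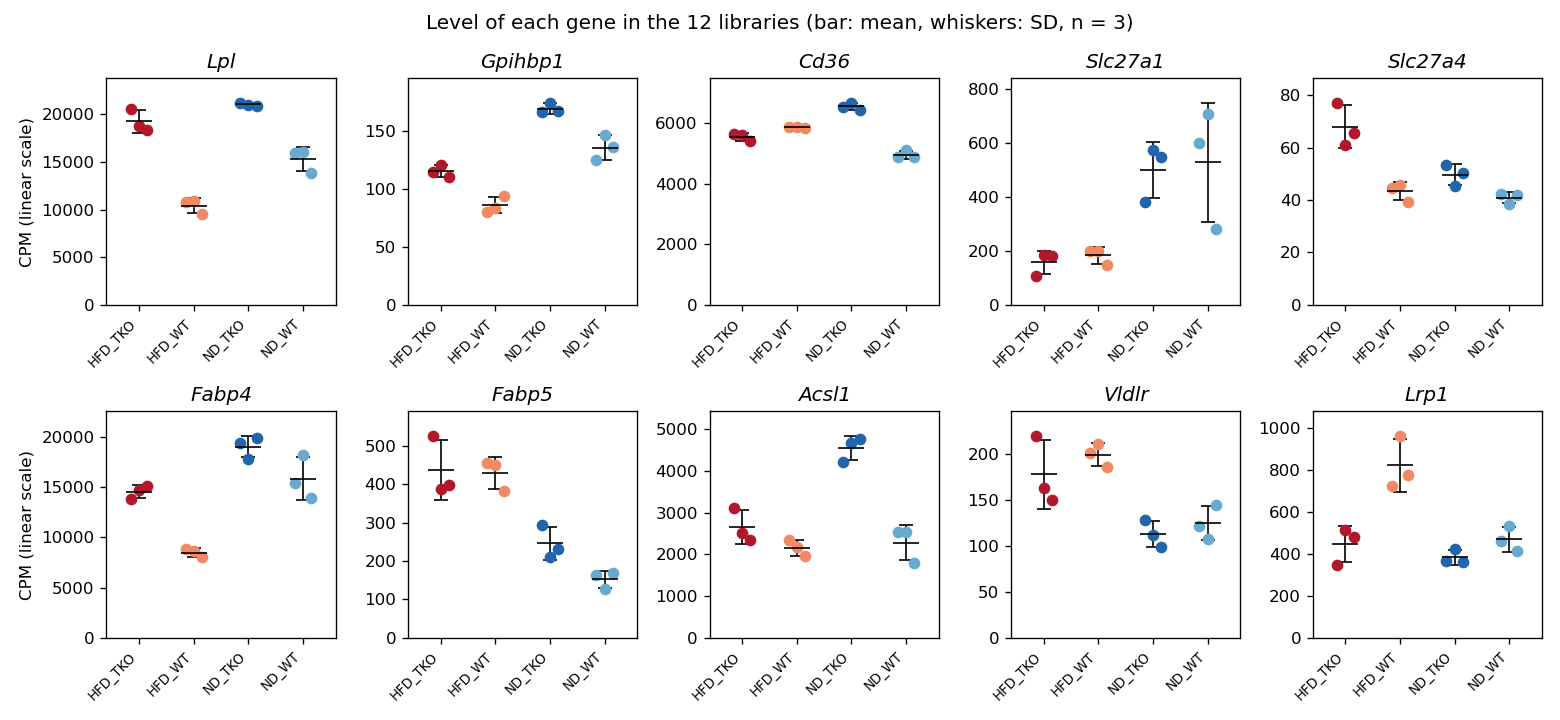
CPM of each of the 10 genes (linear axis from 0) in the HFD_TKO, HFD_WT, ND_TKO and ND_WT libraries; each point is 1 library, the bar is the mean and the whiskers are the SD (n = 3). Lpl and Fabp4 are lowest in HFD_WT, Lrp1 is highest there, and Acsl1 is highest in ND_TKO.

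The 10 genes together held 4.26% to 4.46% of all reads in HFD_TKO, 2.7% to 2.96% in HFD_WT, 5.17% to 5.35% in ND_TKO and 3.56% to 4.35% in ND_WT. HFD_WT was the lowest and ND_TKO the highest, with no overlap with any other group, while HFD_TKO and ND_WT overlapped. Lpl, Fabp4 and Cd36 accounted for most of it, with 3.89% to 4.01% in HFD_TKO, 2.34% to 2.55% in HFD_WT, 4.55% to 4.72% in ND_TKO and 3.26% to 3.93% in ND_WT. Per length, in CPM per kilobase of the matched transcript, Fabp4 was the most abundant member in every group, at 16199 in HFD_TKO, 9470 in HFD_WT, 21218 in ND_TKO and 17657 in ND_WT. Lpl came next with 4683, 2532, 5121 and 3719 CPM per kilobase in the same order of groups, followed by Cd36 with 1841, 1945, 2172 and 1644. The low end was held by Slc27a4, at 16.8, 10.7, 12.2 and 10.1 CPM per kilobase.

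Lpl encodes the enzyme that releases fatty acids from lipoprotein triglyceride (chromosome 8 of mm10, 68880555 to 68906932, plus strand, Entrez gene 16956). It stood at 20617, 18793 and 18397 CPM in HFD_TKO, against 10803, 10958 and 9496 CPM in HFD_WT. On ND it stood at 21238, 21045 and 20932 CPM in ND_TKO, against 15987, 16093 and 13830 CPM in ND_WT. The libraries of the groups did not overlap, and the order from high to low was ND_TKO, HFD_TKO, ND_WT and HFD_WT. Lpl was 1.85-fold higher in TKO on HFD (log2 change 0.89, SE 0.19, adjusted p = 0.0027), a call that ended with no filter on low values (adjusted p = 0.25). The TKO difference on ND was 1.38-fold (0.46, SE 0.19) and did not pass (adjusted p = 0.18), whereas edgeR (0.52, adjusted p = 0.024) and DESeq2 (0.52, adjusted p = 0.0001) called it. HFD lowered Lpl in WT by 0.55 on the log2 scale (SE 0.19, adjusted p = 0.028). That call ended when any 1 of ND_WT replicates 1 (adjusted p = 0.078) or 2 (0.057) or HFD_WT replicates 1 (0.057), 2 (0.054) or 3 (0.081) was left out, in a fit of this pair of groups alone (0.072) and with no filter (0.46). In TKO the diet difference was -0.13 (95% interval -0.55 to 0.29, adjusted p = 0.68).

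Gpihbp1 encodes the endothelial anchor of the enzyme (chromosome 15, 75596630 to 75598213, plus strand, Entrez gene 68453). It stood at 114, 121 and 111 CPM in HFD_TKO, against 80.5, 83.5 and 93.9 CPM in HFD_WT, and at 167, 174 and 167 CPM in ND_TKO, against 125, 146 and 136 CPM in ND_WT. Here too no 2 groups overlapped, but the order differed from that of Lpl: both ND groups lay above both HFD groups. The gene was higher in TKO on HFD (0.42, SE 0.08, adjusted p = 0.00086) and on ND (0.32, SE 0.08, adjusted p = 0.035). The ND call ended without ND_TKO replicate 1 (0.079), 2 (0.085) or 3 (0.086), ND_WT replicate 1 (0.14) or HFD_WT replicate 2 (0.056), and in a fit of this pair of groups alone (0.11). HFD lowered it in TKO by 0.55 (adjusted p = 0.0015) and in WT by 0.65 (adjusted p = 2e-05). Lpl reads per Gpihbp1 read lay between 156 and 180 in HFD_TKO, 101 and 134 in HFD_WT, 121 and 127 in ND_TKO, and 101 and 128 in ND_WT. The HFD_TKO libraries were above all others on that ratio of CPM, which takes no account of transcript length. The 10 endothelial markers summed to 891 to 1024 CPM in HFD_TKO, 890 to 996 CPM in HFD_WT, 924 to 1121 CPM in ND_TKO and 876 to 1054 CPM in ND_WT, with all groups overlapping. Of the 10, 2 were higher and none lower in TKO on HFD (3 and 0 with TMM-scaled CPM), beside 15.2% and 31.6% of all tested genes. None passed in TKO on ND (2 higher with TMM-scaled CPM). On HFD in WT 2 were higher and 2 lower (0 and 4 with TMM-scaled CPM), beside 37.8% and 20.3% of all tested genes. On HFD in TKO 1 was higher and 1 lower (0 and 1 with TMM-scaled CPM), beside 16.2% and 5.90%. The part of endothelial cells in the changes of Gpihbp1 was not tested.

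Other genes that mature, restrain or assist lipoprotein lipase went both ways. Of 17 tested genes in that list, the HFD comparison of TKO with WT called 3 higher and 6 lower (5 and 5 with TMM-scaled CPM; median change -0.01), 1 was higher and 3 lower in TKO on ND (median -0.05), 2 were higher and 1 lower on HFD in TKO, and 8 were higher and 5 lower on HFD in WT (median 0.33, against 0.13 for all tested genes). For scale, the share called among all tested genes for TKO against WT was 46.7% on HFD (15.2% up, 31.6% down). The ND share was 5.70% (2.16% up, 3.54% down). For HFD against ND the share was 22.1% in TKO and 58.1% in WT. Sdc4 and Sdc1 encode syndecans, cell-surface proteoglycans. Sdc4 averaged 32.0 ± 2.62 CPM in HFD_TKO and 79.3 ± 3.22 CPM in HFD_WT (SD, n = 3 each), a change of -1.29 (adjusted p = 6.1e-07). Sdc1 averaged 29.9 ± 7.47 CPM in HFD_TKO and 62.2 ± 2.91 CPM in HFD_WT (-1.06, adjusted p = 0.00023). Among genes changed by diet in WT, the apolipoprotein gene Apoc1 fell to 43.7 ± 5.57 CPM in HFD_WT, against 193 ± 58.8 CPM in ND_WT (-2.08, adjusted p = 5.5e-06).

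Cd36 encodes a scavenger receptor that takes up long-chain fatty acids (chromosome 5, 17781690 to 17888959, minus strand, Entrez gene 12491). It stood at 5641, 5612 and 5409 CPM in HFD_TKO, 5881, 5873 and 5842 CPM in HFD_WT, 6531, 6677 and 6444 CPM in ND_TKO, and 4884, 5107 and 4885 CPM in ND_WT. Replicates lay close together and no 2 groups overlapped, yet the group means differed by at most 0.40 on the log2 scale, the smallest span among the 10 genes. No comparison of Cd36 passed the main test. In TKO on ND it was 1.32-fold higher (0.40, SE 0.12, adjusted p = 0.077), which edgeR (adjusted p = 0.0091) and DESeq2 (2.1e-10) called. On HFD the TKO difference was -0.08 (95% interval -0.34 to 0.19, adjusted p = 0.63), and its sign turned with TMM-scaled CPM (0.04), edgeR (0.06) and DESeq2 (0.06). The diet difference was -0.24 in TKO (adjusted p = 0.18, called by edgeR at 0.021 and by DESeq2 at 2.9e-05) and 0.24 in WT (adjusted p = 0.11).

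Slc27a1 encodes FATP1, a transport protein with acyl-CoA synthetase activity (chromosome 8, 71568728 to 71587307, plus strand, Entrez gene 26457). It stood at 106, 183 and 182 CPM in HFD_TKO, against 201, 201 and 147 CPM in HFD_WT, and at 380, 573 and 546 CPM in ND_TKO, against 598, 705 and 282 CPM in ND_WT. Every ND library lay above every HFD library, while genotypes overlapped within each diet. HFD lowered Slc27a1 in TKO by 1.68 (SE 0.32, adjusted p = 0.0044) and in WT by 1.43 (SE 0.32, adjusted p = 0.0021), and both calls held in every alternative. The TKO differences of -0.25 on HFD (95% interval -0.94 to 0.45, adjusted p = 0.56) and of -0.0001 on ND (95% interval -0.69 to 0.69, adjusted p = 1) had wide intervals. ND_WT replicate 3, at 282 CPM, was the lowest ND library, and without it the TKO difference on ND was -0.40. HFD_TKO replicate 1, at 106 CPM, was the lowest HFD library, and without it the TKO difference on HFD was 0.01. Relative to its mean, Slc27a1 had the largest SD of the members in each group, at 28.1% in HFD_TKO, 17.0% in HFD_WT, 20.9% in ND_TKO and 41.6% in ND_WT.

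Slc27a4 encodes FATP4, a related transport protein with acyl-CoA synthetase activity (chromosome 2, 29802634 to 29817522, plus strand, Entrez gene 26569). It stood at 77.2, 61.1 and 65.7 CPM in HFD_TKO, against 44.8, 45.8 and 39.4 CPM in HFD_WT, and at 53.3, 45.4 and 50.2 CPM in ND_TKO, against 42.2, 38.6 and 42.1 CPM in ND_WT. The 3 HFD_TKO libraries were above all 9 others. Slc27a4 was higher in TKO on HFD (1.57-fold, 0.63, SE 0.10, adjusted p = 0.00023), and the ND difference of 0.27 did not pass (adjusted p = 0.13). HFD raised it in TKO (0.44, adjusted p = 0.0092), a call that ended with TMM-scaled CPM (0.067) and edgeR (0.054). In WT the diet difference was 0.08 (95% interval -0.14 to 0.29, adjusted p = 0.52), and its sign turned with TMM-scaled CPM (-0.06). Slc27a1 CPM per Slc27a4 CPM averaged 2.38 ± 0.878 in HFD_TKO, 4.21 ± 0.411 in HFD_WT, 10.2 ± 2.80 in ND_TKO and 13.05 ± 5.87 in ND_WT (SD, n = 3 each). That ratio separated HFD_TKO from HFD_WT and both from the ND groups, which overlapped each other.

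Among 14 other tested genes of fatty acid transport and CD36 handling, TKO on HFD had 4 higher and 4 lower (median change 0.00). With TMM-scaled CPM these counts were 6 and 4 (median 0.11). In TKO on ND 1 was higher, and on HFD in TKO 3 were higher. On HFD in WT 6 were higher and 3 lower (median 0.16), or 5 and 4 with TMM-scaled CPM. Of all tested genes, 46.7% were called in TKO on HFD, 5.70% in TKO on ND, 22.1% on HFD in TKO and 58.1% on HFD in WT. Lyn and Fyn encode Src family kinases that signal with CD36. Lyn lay between 49.7 and 54.9 CPM in HFD_TKO and between 127 and 147 CPM in HFD_WT (-1.38, adjusted p = 1.4e-06), and its WT diet change was 1.97 (adjusted p = 5.1e-08). Fyn rose to 66.0 ± 4.47 CPM in HFD_WT, against 23.8 ± 5.39 CPM in ND_WT (1.45, adjusted p = 1.7e-06). Scarb2, which encodes a lysosomal membrane protein of the CD36 family, averaged 208 ± 5.50 CPM in HFD_TKO and 317 ± 19.4 CPM in HFD_WT (-0.60, adjusted p = 1.4e-05). In the other direction, the caveolin gene Cav2 averaged 934 ± 34.9 CPM in HFD_TKO and 502 ± 32.1 CPM in HFD_WT (0.90, adjusted p = 2.7e-06).

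**Figure D2:**
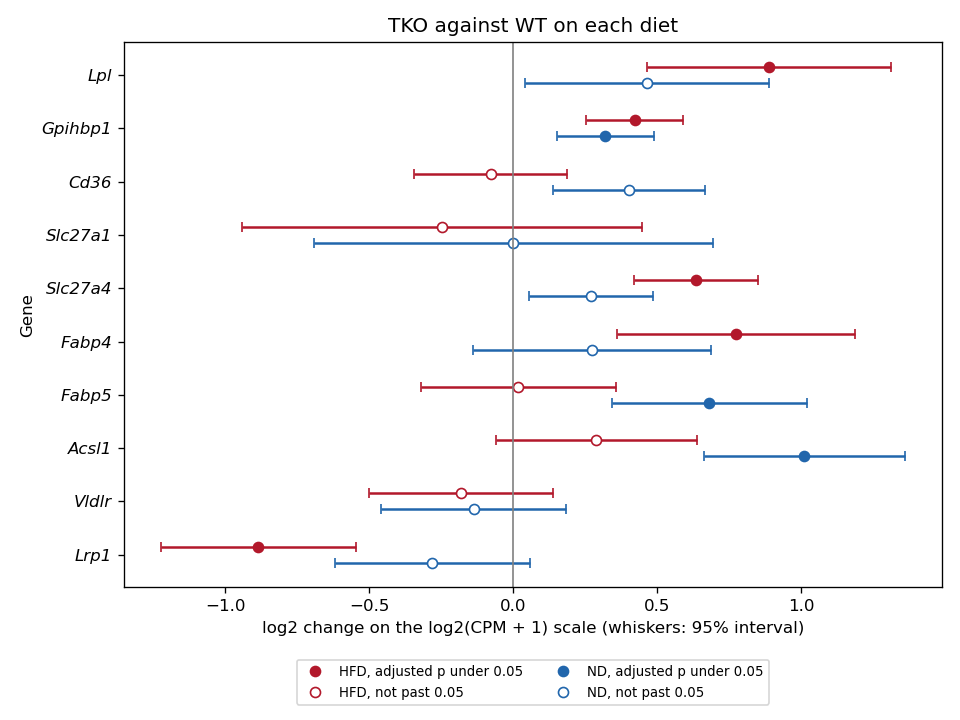
log2 change of TKO against WT for each of the 10 genes on HFD and on ND, with 95% intervals of the limma fit (n = 3 per group); filled points passed an adjusted p of 0.05. Lpl, Gpihbp1, Slc27a4, Fabp4 and Lrp1 are filled on HFD, and Gpihbp1, Fabp5 and Acsl1 on ND.

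Fabp4 encodes the main cytosolic fatty acid carrier of adipocytes (chromosome 3, 10204342 to 10208616, minus strand, Entrez gene 11770). It stood at 13802, 14686 and 15056 CPM in HFD_TKO, against 8823, 8595 and 8038 CPM in HFD_WT, and at 19385, 17793 and 19855 CPM in ND_TKO, against 15418, 18144 and 13899.6 CPM in ND_WT. The HFD_WT libraries were the lowest, and the HFD_TKO libraries overlapped those of ND_WT. Fabp4 was 1.71-fold higher in TKO on HFD (0.77, SE 0.19, adjusted p = 0.0053), and the ND difference of 0.27 did not pass (adjusted p = 0.43). HFD lowered it in WT by 0.89 (SE 0.19, adjusted p = 0.0016). With no filter on low values, neither the TKO call on HFD (adjusted p = 0.26) nor the diet call in WT (0.17) was made. In TKO the diet difference was -0.39 (adjusted p = 0.16), which edgeR (0.020) and DESeq2 (0.00071) called.

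Fabp5 encodes the epidermal form of the same family, which macrophages also use (chromosome 3, 10012585 to 10016610, plus strand, Entrez gene 16592). It stood at 526, 388 and 397 CPM in HFD_TKO, against 456, 449.7 and 382 CPM in HFD_WT, and at 294, 211 and 232 CPM in ND_TKO, against 163, 127 and 168 CPM in ND_WT. The HFD groups overlapped each other and lay above both ND groups, and ND_WT was the lowest. HFD raised Fabp5 2.81-fold in WT (1.49, SE 0.15, adjusted p = 6.8e-06) and 1.78-fold in TKO (0.83, SE 0.15, adjusted p = 0.0043). On ND it was 1.61-fold higher in TKO (0.68, SE 0.15, adjusted p = 0.026). That call ended without ND_TKO replicate 1 (0.093) or 3 (0.068) or ND_WT replicate 1 (0.064) or 2 (0.092), and in a fit of this pair of groups alone (0.071). On HFD the TKO difference was 0.02 (95% interval -0.32 to 0.36, adjusted p = 0.95), and its sign turned without HFD_TKO replicate 1 (-0.12) or HFD_WT replicate 3 (-0.06). The macrophage marker sums were 1568 to 1786 CPM in HFD_TKO and 6557 to 7337 CPM in HFD_WT, without overlap. On ND they were 862 to 1180 CPM in ND_TKO and 1024 to 1554 CPM in ND_WT. The part of macrophages in the Fabp5 levels was not tested. Reads of Fabp5 could be shared with pseudogene copies, as the treatment of multi-mapped reads is not given in the sources used here.

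The balance between Fabp4 and Fabp5 was set side by side in each library. Fabp4 CPM per Fabp5 CPM lay between 26.2 and 37.9 in HFD_TKO, 19.1 and 21.1 in HFD_WT, 65.9 and 85.4 in ND_TKO, and 82.7 and 143 in ND_WT. HFD_TKO and HFD_WT did not overlap, both ND groups lay above them, and the ND groups overlapped each other. Among 10 other tested genes of fatty acid and acyl-CoA binding, TKO on HFD had 3 higher and 5 lower (median change -0.16), none passed in TKO on ND (median 0.02), and 1 was higher on HFD in TKO. In WT 4 were higher and 3 lower on HFD. The shares of all tested genes called were 46.7% in TKO on HFD, 5.70% in TKO on ND, 22.1% on HFD in TKO and 58.1% on HFD in WT. Dbi, the acyl-CoA binding protein gene, averaged 2118 ± 177 CPM in HFD_TKO and 1153 ± 64.0 CPM in HFD_WT (0.88, adjusted p = 6.1e-05). The retinol carrier gene Rbp4 averaged 444 ± 46.8 CPM in HFD_TKO and 153 ± 8.08 CPM in HFD_WT (1.53, adjusted p = 8.5e-06), and Acbd4 averaged 170 ± 13.4 and 90.6 ± 3.88 CPM in the same groups (0.90, adjusted p = 4.2e-05). Acbd3, which encodes a Golgi protein with an acyl-CoA binding domain, rose to 68.2 ± 4.20 CPM in HFD_WT, against 38.4 ± 2.63 CPM in ND_WT (0.81, adjusted p = 1e-05).

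Acsl1 encodes the main long-chain acyl-CoA synthetase of fat (chromosome 8, 46471037 to 46536051, plus strand, Entrez gene 14081). It stood at 3102, 2503 and 2338 CPM in HFD_TKO, against 2337, 2186 and 1956 CPM in HFD_WT, and at 4220.2, 4661 and 4766 CPM in ND_TKO, against 2526, 2525 and 1797 CPM in ND_WT. The ND_TKO libraries were above all 9 others, and the remaining groups lay close to one another, with the lowest HFD_TKO library just above the highest HFD_WT library. Acsl1 was 1.99-fold higher in TKO on ND (1.01, SE 0.16, adjusted p = 0.0038), a call held in every alternative. On HFD the TKO difference was 0.29 (95% interval -0.06 to 0.64, adjusted p = 0.16), which edgeR (0.44, adjusted p = 0.044) and DESeq2 (0.43, adjusted p = 0.020) called. Without HFD_TKO replicate 1, the highest HFD library, it was 0.17 (adjusted p = 0.44). HFD lowered Acsl1 in TKO by 0.79 (SE 0.16, adjusted p = 0.0060), and in WT the diet difference was -0.07 (95% interval -0.41 to 0.28, adjusted p = 0.75). GENCODE places Gm45244, an unclassified transcript on the other strand, over exons of Acsl1, and reads of the pair cannot be told apart without strand.

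Other synthetases and thioesterases went both ways. Among 19 tested genes, TKO on HFD had 4 higher and 5 lower (7 and 5 with TMM-scaled CPM; median change 0.09), none was higher and 1 lower in TKO on ND (median -0.05), 2 were higher and 4 lower on HFD in TKO (0 and 5 with TMM-scaled CPM), and 6 were higher and 4 lower on HFD in WT. Beside these counts, 46.7% of all tested genes were called in TKO on HFD, 5.70% in TKO on ND, 22.1% on HFD in TKO and 58.1% on HFD in WT. The synthetase gene Acsl5 went the other way from Lpl and Fabp4, at 80.9 ± 7.25 CPM in HFD_TKO and 153 ± 2.47 CPM in HFD_WT (-0.92, adjusted p = 2e-06), and its WT diet change was 0.87 (adjusted p = 1.7e-06). Acss3, a mitochondrial short-chain synthetase gene, averaged 114 ± 21.4 CPM in HFD_TKO and 37.8 ± 1.65 CPM in HFD_WT (1.55, adjusted p = 6.7e-06). In HFD_WT against ND_WT it fell by 2.29 (adjusted p = 1.8e-07). The thioesterase gene Acot11 averaged 3.71 ± 0.856 CPM in HFD_TKO and 10.3 ± 1.25 CPM in HFD_WT (-1.27, adjusted p = 3.5e-05).

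Promoters of Acsl1, Slc27a4 and Lrp1, members called by genotype on ND or on HFD, are shown. TET proteins act on methylated cytosine, which in mammals lies mostly in CpG pairs. Lpl, Gpihbp1, Fabp4 and Fabp5 were also called by genotype, but no window was found for them. The windows shown therefore do not stand for all members called by genotype. DNA methylation was not measured in the data used here. RefSeq promoter windows on GRCm38.p6 (mm10), from 250 bases before to 50 after a start, were found for 6 of the 10 genes, and those of Acsl1, Slc27a4 and Lrp1 are printed 5′ to 3′ on the gene's strand with each CpG in capitals. Acsl1 has annotated starts on the plus strand with windows at chr8:46470787-46471086 and chr8:46490716-46491015, Slc27a4 has 1 on the plus strand at chr2:29802384-29802683, and Lrp1 has 1 on the minus strand at chr10:127621099-127621398.
Acsl1 start 1: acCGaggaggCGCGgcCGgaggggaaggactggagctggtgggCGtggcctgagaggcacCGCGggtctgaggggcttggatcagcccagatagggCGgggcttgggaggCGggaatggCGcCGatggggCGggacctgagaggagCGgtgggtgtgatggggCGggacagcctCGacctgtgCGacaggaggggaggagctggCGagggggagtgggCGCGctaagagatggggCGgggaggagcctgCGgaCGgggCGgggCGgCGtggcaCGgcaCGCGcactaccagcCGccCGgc
Acsl1 start 2: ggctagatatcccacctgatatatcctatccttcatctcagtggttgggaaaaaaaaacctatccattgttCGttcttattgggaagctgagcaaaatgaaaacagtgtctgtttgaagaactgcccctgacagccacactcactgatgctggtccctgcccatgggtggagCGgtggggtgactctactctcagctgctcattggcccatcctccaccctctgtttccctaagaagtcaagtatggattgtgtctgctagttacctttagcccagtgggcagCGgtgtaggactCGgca
Slc27a4: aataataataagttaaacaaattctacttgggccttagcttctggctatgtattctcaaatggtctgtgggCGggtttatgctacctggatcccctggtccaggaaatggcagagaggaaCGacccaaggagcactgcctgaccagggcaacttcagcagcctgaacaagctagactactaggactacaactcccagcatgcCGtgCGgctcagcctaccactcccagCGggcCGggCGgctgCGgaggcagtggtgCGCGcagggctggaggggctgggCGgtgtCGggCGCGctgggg
Lrp1: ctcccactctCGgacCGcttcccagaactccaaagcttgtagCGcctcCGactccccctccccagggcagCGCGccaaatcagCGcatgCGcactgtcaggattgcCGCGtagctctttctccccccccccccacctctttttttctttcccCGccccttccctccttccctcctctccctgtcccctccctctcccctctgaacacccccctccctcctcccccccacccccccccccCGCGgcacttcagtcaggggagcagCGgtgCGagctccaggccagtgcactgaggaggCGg
The Acsl1 windows held 30 and 4 CpG pairs, that of Slc27a4 held 14 and that of Lrp1 held 16. Among all 32851 windows of the table the median was 7, and 11.7% had at least 30, 36.3% at least 14, 33% at least 16 and 68.6% at least 4. Gene-level reads do not tell which Acsl1 start was used. The window of Cd36 held 3 CpG pairs, those of Slc27a1 held 10, 16 and 13, and those of Vldlr held 8 and 23. The Cd36 window (chr5:17835847-17836146) lies inside the span of the gene, which on the minus strand begins at 17888959. It is that of an internal start, and no window was found at the outer end. On either strand, the half-site AGGTCA occurred once, in the Cd36 window (16.3% of all windows hold it), and the doubled form AGGNCANAGGNCA, which contains that half-site in part of its matches, occurred in none of the 10 windows (0.381% of all hold it). CCAAT occurred in 2 of the 3 Slc27a1 windows, in the second Acsl1 and Vldlr windows and in the Cd36 window (37.4% of all hold it), and TATAAA in none (13.6%).

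Vldlr encodes a receptor that binds triglyceride-rich lipoproteins and aids their lipolysis (chromosome 19, 27216480 to 27254231, plus strand, Entrez gene 22359). It stood at 220.4, 164 and 150.4 CPM in HFD_TKO, against 201, 211 and 187 CPM in HFD_WT, and at 128, 112 and 99.5 CPM in ND_TKO, against 121, 108 and 145 CPM in ND_WT. All HFD libraries were above all ND libraries, and genotypes overlapped within each diet. HFD raised Vldlr in TKO (0.64, SE 0.15, adjusted p = 0.011) and in WT (0.68, SE 0.15, adjusted p = 0.0018). The call in TKO ended without ND_TKO replicate 3 (0.55, adjusted p = 0.055). TKO differences were -0.18 on HFD (95% interval -0.50 to 0.14, adjusted p = 0.34) and -0.14 on ND (95% interval -0.46 to 0.18, adjusted p = 0.63). Without HFD_TKO replicate 1, the highest HFD library, the difference on HFD was -0.34 (adjusted p = 0.051).

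Lrp1 encodes a large endocytic receptor that clears lipoprotein remnants and is also abundant in macrophages and stroma (chromosome 10, 127538157 to 127621148, minus strand, Entrez gene 16971). It stood at 349, 516 and 480.5 CPM in HFD_TKO, against 727, 966 and 779.6 CPM in HFD_WT, and at 366, 426 and 364 CPM in ND_TKO, against 461, 533 and 416 CPM in ND_WT. The HFD_WT libraries were above all 9 others, which overlapped. In TKO on HFD its mean was 0.544 times that of WT (-0.89, SE 0.16, adjusted p = 0.0006), and on ND the difference of -0.28 did not pass (adjusted p = 0.31). HFD raised it in WT (1.75-fold, 0.81, SE 0.16, adjusted p = 0.00083), and the difference in TKO was 0.20 (95% interval -0.14 to 0.54, adjusted p = 0.38). Without HFD_TKO replicate 1, the lowest HFD library, that difference was 0.37 (adjusted p = 0.089). Beside these values, the 12 macrophage markers summed to 1568 to 1786 CPM in HFD_TKO, 6557 to 7337 CPM in HFD_WT, 862 to 1180 CPM in ND_TKO and 1024 to 1554 CPM in ND_WT. The 10 stromal and progenitor markers summed to 4073 to 4824, 6297 to 8286, 3268 to 3415 and 3151 to 3616 CPM in the same order of groups. The part of either cell type in the Lrp1 difference was not tested.

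Among 16 other tested genes of the LDL receptor family and its partners, TKO on HFD had 4 higher and 6 lower (median change -0.17), 1 was higher in TKO on ND, 2 were higher and 1 lower on HFD in TKO (2 and 3 with TMM-scaled CPM), and 8 were higher and 3 lower on HFD in WT (median 0.30). Calls over all tested genes were 46.7% in TKO on HFD, 5.70% in TKO on ND, 22.1% on HFD in TKO and 58.1% on HFD in WT. Dab2, which encodes an adaptor that links these receptors to endocytosis, averaged 82.97 ± 4.88 CPM in HFD_TKO and 244 ± 18.6 CPM in HFD_WT (-1.54, adjusted p = 3.6e-06). The family member Lrp3 went the other way from Lrp1, at 70.8 ± 3.70 CPM in HFD_TKO and 40.2 ± 1.39 CPM in HFD_WT (0.80, adjusted p = 1.1e-06).

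**Figure D3:**
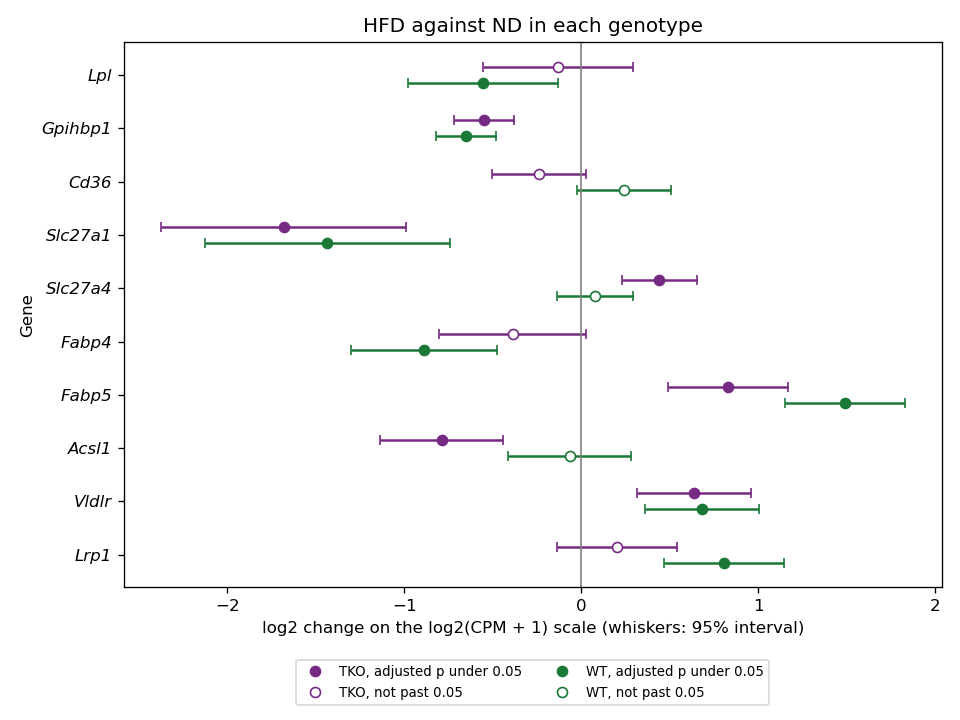
log2 change of HFD against ND for each of the 10 genes in TKO and in WT, with 95% intervals of the limma fit (n = 3 per group); filled points passed an adjusted p of 0.05. Gpihbp1 and Slc27a1 lie below 0 and Fabp5 and Vldlr above 0 in both genotypes, while Lpl, Fabp4 and Lrp1 are filled in WT alone and Slc27a4 and Acsl1 in TKO alone.

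Whether the TKO difference changed with diet was tested by the interaction, the TKO effect on HFD minus that on ND. Fabp5 (-0.66, SE 0.22, adjusted p = 0.040) and Acsl1 (-0.72, SE 0.23, adjusted p = 0.032) passed, both with a larger TKO excess on ND. Of all tested genes 28.7% were called, 18.8% with a negative interaction (17.1% with TMM scaling) and 9.94% with a positive one (11.2%). Neither call was made with TMM-scaled CPM (adjusted p = 0.084 for Fabp5 and 0.074 for Acsl1) or with edgeR (0.11 and 0.065). Both were lost without ND_TKO replicate 3 (0.057 and 0.067), HFD_TKO replicates 2 (0.091 and 0.069) or 3 (0.092 and 0.079), or HFD_WT replicates 1 (0.092 and 0.080) or 2 (0.085 and 0.065). Fabp5 was also lost without ND_TKO replicate 1 (0.090), ND_WT replicate 1 (0.051) or 2 (0.088), and Acsl1 without ND_TKO replicate 2 (0.065). The differences of Cd36 (-0.48, adjusted p = 0.055), Lrp1 (-0.60, 0.059), Slc27a4 (0.36, 0.069), Fabp4 (0.50, 0.19) and Lpl (0.42, 0.28) did not pass. With edgeR those of Cd36 (0.024), Fabp4 (0.025) and Lpl (0.037) passed, as they did with DESeq2. The interaction of Cd36 was also called without ND_WT replicate 3 (0.040), that of Slc27a4 without HFD_TKO replicate 2 (0.041), and that of Lrp1 without ND_WT replicate 2 (0.043) or HFD_TKO replicate 2 (0.037) and with the replicate number as a block (0.015).

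HFD_TKO was also set against ND_WT, where 35.1% of all tested genes were called. Fabp5 (2.86-fold, 1.51, adjusted p = 0.00011), Slc27a4 (1.66-fold, 0.71, adjusted p = 0.00043) and Vldlr (0.50, adjusted p = 0.021) were higher in HFD_TKO, with 20.0% of all tested genes higher (17.9% with TMM scaling). Slc27a1 (-1.68, adjusted p = 0.0023) and Gpihbp1 (-0.23, adjusted p = 0.036) were lower, with 15.0% of all tested genes lower (17.6% with TMM scaling). The count was 3 in a fit of this pair of groups alone and without ND_WT replicate 2 or HFD_TKO replicate 1. The calls of Gpihbp1 and Vldlr ended in a fit of this pair of groups alone (0.090 and 0.067). Gpihbp1 was lost without ND_WT replicate 2 (0.14) or 3 (0.055) or HFD_TKO replicate 1 (0.077) or 3 (0.11), and Vldlr without ND_WT replicate 1 (0.063) or 2 (0.084) or HFD_TKO replicate 1 (0.076). The differences of Lpl (0.33, 95% interval -0.09 to 0.76), Fabp4 (-0.12, -0.53 to 0.30), Cd36 (0.16, -0.10 to 0.43), Acsl1 (0.22, -0.13 to 0.57) and Lrp1 (-0.08, -0.42 to 0.26) did not pass. DESeq2 called that of Lpl (0.31, adjusted p = 0.014).

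Genes of PPARγ and partner transcription factors were read beside the members. Of 12 tested genes in the PPARγ list, 7 were higher and none lower in TKO on HFD (8 and 0 with TMM-scaled CPM). Their median change was 0.49, against -0.10 for all tested genes, of which 15.2% were higher and 31.6% lower. None passed in TKO on ND (median -0.13), where 5.70% of all tested genes were called. HFD in TKO raised 1, where 16.2% of all tested genes were higher. HFD in WT left 1 higher and 8 lower (median -0.63), beside 37.8% and 20.3% of all tested genes. With TMM-scaled CPM the list had 1 higher and 10 lower on HFD in WT, beside 29.9% and 27.2%. Cebpa, a partner of PPARγ in adipocyte differentiation, averaged 524 ± 25.0 CPM in HFD_TKO and 318 ± 8.26 CPM in HFD_WT (0.72, adjusted p = 0.00025). Rxra, the binding partner of PPARγ, averaged 202 ± 10.8 CPM in HFD_TKO and 140 ± 2.35 CPM in HFD_WT (0.53, adjusted p = 7.4e-05). Srebf1, a regulator of lipid synthesis, averaged 298 ± 19.0 CPM in HFD_TKO and 170 ± 1.39 CPM in HFD_WT (0.80, adjusted p = 9.1e-05). All 3 fell on HFD in WT, by 1.17, 0.69 and 0.82 in the same order. The part of these factors in the members' changes was not tested.

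The members were also read beside the markers of the cells a fat pad holds. The 12 adipocyte markers, none of them a member, summed to 18976 to 21102 CPM in HFD_TKO and 12037 to 12534 CPM in HFD_WT. On ND they summed to 29242 to 33002 CPM in ND_TKO and 35374 to 42861 CPM in ND_WT. In TKO on HFD 10 were higher and none lower (median change 1.14, against -0.10 for all tested genes). Of all tested genes, 15.2% were higher there (21.3% with TMM scaling). On ND 4 of the 12 were lower in TKO, none was higher and 8 did not pass (median change -0.17, against -0.06 for all tested genes, of which 3.54% were lower). Among those that did not pass on ND, Adipoq, the adiponectin gene, averaged 6118 ± 407 CPM in ND_TKO and 4856 ± 365 CPM in ND_WT (0.33, adjusted p = 0.24). Plin1, which encodes a coat protein of lipid droplets, averaged 1295 ± 58.0 CPM in ND_TKO and 1303 ± 131 CPM in ND_WT (-0.01, adjusted p = 0.99). On HFD in WT, 11 adipocyte markers were lower and 1 higher (median -1.88), where 20.3% of all tested genes were lower. On HFD in TKO, 10 were lower and 1 higher (median -0.69), where 5.90% were lower. In HFD_TKO against ND_WT, 9 were lower and none higher (median -0.75), where 15.0% were lower. The 10 markers of lipid-associated macrophages, cells that gather at dying adipocytes, summed to 629 to 948 CPM in HFD_TKO, 4990.5 to 6542 CPM in HFD_WT, 388 to 584 CPM in ND_TKO and 509 to 528 CPM in ND_WT. All 10 were lower in TKO on HFD (median -3.45), as were 11 of the 12 macrophage markers (median -2.08). Of all tested genes, 31.6% were lower in that comparison (25.6% with TMM scaling). Lymphocyte markers summed to at most 7.81 CPM (T and NK cell) and 13.7 CPM (B and plasma cell) in HFD_TKO, and to between 19.3 and 59.3 CPM and between 71.3 and 266 CPM in HFD_WT. They summed to at most 11.03 CPM and 40.8 CPM in ND_TKO, and to at most 8.02 CPM and 72.9 CPM in ND_WT. Mesothelial markers summed to 43.5 to 212 CPM in HFD_TKO, 106 to 130 CPM in HFD_WT, 146 to 265 CPM in ND_TKO and 279 to 398 CPM in ND_WT. Epididymal markers summed to at most 3.53 CPM in any library, and 6 of the 8 were below the CPM of 3 reads in all. The part of these cells in the changes of the members and of the other named genes was not tested.

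**Figure D4:**
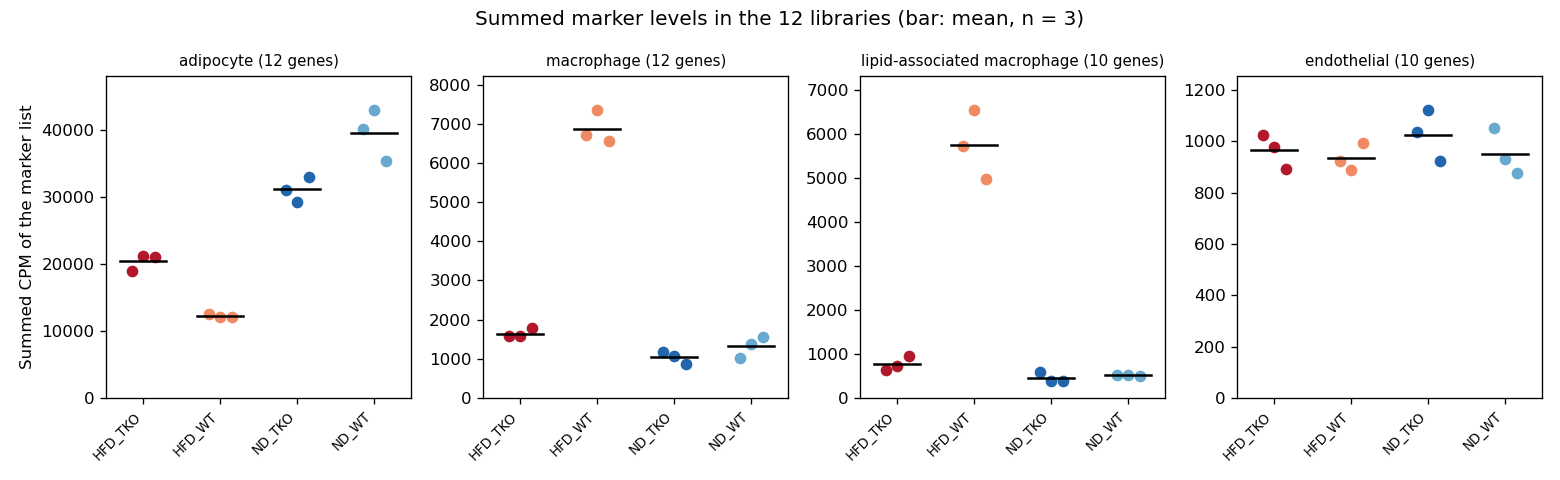
Summed CPM (linear axis from 0) of the adipocyte, macrophage, lipid-associated macrophage and endothelial marker lists in the HFD_TKO, HFD_WT, ND_TKO and ND_WT libraries; each point is 1 library and the bar is the mean (n = 3). The adipocyte sum is lowest and both macrophage sums are highest in HFD_WT, while the endothelial sums of all groups overlap.

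Genes with a like pattern were found for the 6 members whose group means spanned at least 1 on the log2 scale, by the root mean square difference of centred log2(CPM + 1) over the 12 libraries, among tested genes with a mean of at least 10 CPM. Nearest to Lpl were Cmbl (0.0866), Gnb5 (0.102) and Fcor (0.107). Nearest to Fabp4 were Fitm2, which encodes a protein of lipid droplet formation (0.0511), Tmeff1 (0.0825) and 1600014C10Rik (0.0958). For Lrp1 they were Wdfy3 (0.116), Synj1 (0.127) and Ptma (0.130), and for Fabp5 they were Nedd4l (0.181), Klhl25 (0.191) and Ephb2 (0.195). For Acsl1 they were Arxes1 (0.191), the adenylyl cyclase gene Adcy5 (0.218) and the insulin receptor substrate gene Irs2 (0.245). For Slc27a1 they were B3galt2 (0.244), Sema5a (0.257) and St3gal4 (0.268). These distances describe these libraries only.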

How the data were processed

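Gene-level values were deposited by the authors as CPM (reads scaled to the library total) in 1 table of 12 libraries. The submitters' processing notes list STAR 2.7.3a, featureCounts 2.0.0, DESeq2 and the mm10 build, and which step made the CPM is not given in the sources used here. Every value came out as a whole number of reads (tolerance 0.05 read) plus 0.01 read, so reads were recovered for 100% of values, with 3 reads worth 0.117 to 0.143 CPM. The 3 rows without a symbol (0.0313% to 0.0679% of CPM) were left out of the tests.

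Genes with at least 0.5 CPM in at least 3 libraries (15597) were tested with limma 3.58.1 in R 4.3.3 on log2(CPM + 1), a scale that understates the change of low genes. All 4 groups entered 1 fit with 8 residual degrees of freedom, and the Benjamini-Hochberg adjustment ran over all tested genes. The pipeline was tested on simulated data in which a small share of genes changed, in HFD_TKO alone. Simulated data with changes in a large share of genes were not run. Alternatives were pseudocounts of 0.25 and 5, no filter, TMM-scaled CPM, edgeR 4.0.16 (quasi-likelihood) and DESeq2 1.42.0 on recovered reads, only the groups compared, the replicate number as a block, and leaving out each library. The blocked fit of only the groups compared, for HFD against ND in TKO, was chosen after seeing the data. The groups are biological replicates per the labels' protocols. Deviations of same-numbered libraries correlated at r = -0.497 to 0.562 over 18 pairs, of which 5 were above 0.1. They were 0.392, 0.562 and 0.123 between HFD_TKO and ND_TKO, so the pairing of these groups was also fitted, as an alternative. The values printed are from the fit without the block.

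Members and lists were chosen with earlier results of these data known. Beside the members, the text names Tet1 to Tet3, nearest genes, and genes drawn from the 3 smallest adjusted p per pathway list for TKO against WT on HFD and for HFD against ND in WT. Some genes that this rule names are not reported here. Transcript lengths are from GENCODE transcripts matched to each gene's RefSeq accession.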

Additional observations from a re-analysis of the deposited data

Results flagged for a closer look

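The TKO effect differed between diets for 2 of the 10 genes by the interaction test in limma. For Fabp5 the TKO effect on HFD minus that on ND was -0.66 (SE 0.22, adjusted p = 0.040), with 437 ± 77.2 CPM in HFD_TKO, 429 ± 41.0 CPM in HFD_WT, 246 ± 43.1 CPM in ND_TKO and 153 ± 22.2 CPM in ND_WT (SD, n = 3 each). For Acsl1 it was -0.72 (SE 0.23, adjusted p = 0.032), with 2648 ± 402 CPM in HFD_TKO, 2159.5 ± 192 CPM in HFD_WT, 4549 ± 289.8 CPM in ND_TKO and 2283 ± 421 CPM in ND_WT. The sign was negative in every alternative run for both genes. Neither passed with TMM-scaled CPM, with edgeR or with no filter on low values, and with DESeq2 Acsl1 passed and Fabp5 did not (adjusted p = 0.077).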

How the results depend on the processing

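Precision rests on 3 libraries per group, whose spread set the width of the intervals. Of the members' log2 changes under the alternatives, 1095 kept direction and call, 54 lost and 23 gained a call, and 28 changed sign, none of them of a called value. The members called in TKO on ND (3) were 5 with edgeR and DESeq2, 1 with only the groups compared and 1 to 3 with a library left out; in TKO on HFD (5) they were 3 with no filter. For the interaction (2) they were 0 with no filter and with TMM scaling (4 at an unadjusted p under 0.05 each, against 3 called by edgeR), 4 with DESeq2 and 0 to 3 with a library left out. For HFD_TKO against ND_WT (5) they were 3 with only the groups compared and 3 to 5 with a library left out. All genes called in TKO on ND (889) were 1395 with DESeq2, 280 with only the groups compared and 349 to 1851 with a library left out, the lowest without ND_WT replicate 1 (ND_TKO replicates 1 and 3 and ND_WT replicate 2 also lowered it by over 1.5 times) and the highest without ND_WT replicate 3. Over the other pathway genes (7) these were 14, 2 and 2 to 18. On HFD in TKO, all genes called (3446) were 1709 to 4295 and pathway genes (17) were 10 to 27 with a library left out, lowest without ND_TKO replicate 3 and highest without ND_WT replicate 3. For HFD_TKO against ND_WT all genes called (5472) were 3596 with only the groups compared.

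Sign changes were these. Slc27a1 in TKO on ND was 0.0001 with a pseudocount of 0.25, 0.0665 with TMM scaling and -0.40 to 0.26 with a library left out. Cd36 in TKO on HFD was 0.0368 with TMM scaling, 0.0591 with edgeR and 0.0564 with DESeq2. Slc27a4 on HFD in WT was -0.0646, -0.0786 and -0.0711 with these. The interaction of Vldlr was 0.0052, 0.0613 and 0.0622 with these and -0.21 to 0.0676 with a library left out. With a library left out, Slc27a1 in TKO on HFD was -0.40 to 0.0107, Fabp5 there -0.12 to 0.10, Acsl1 on HFD in WT -0.23 to 0.0160, the interaction of Slc27a1 -0.51 to 0.15 and Lrp1 in HFD_TKO against ND_WT -0.19 to 0.0906. The causes were not tested.

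With the replicate number as a block, 3 members were called in TKO on ND, 5 in TKO on HFD, 7 on HFD in WT, 6 on HFD in TKO, 3 for the interaction (Lrp1 added) and 5 for HFD_TKO against ND_WT. With the pairing of HFD_TKO and ND_TKO in a fit of those groups alone, 6 members were called, 3 higher and 3 lower, as without it.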
